A study of Homo sapiens with 3 samples.

Results

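The chemokines that draw neutrophils, monocytes and related leukocytes were examined in Caki-1 cells after depletion of RBCK1. They are 8 genes, *CXCL1*, *CXCL2*, *CXCL3*, *CXCL5*, *CXCL6*, *CXCL8*, *CCL2* and *CCL20*, of the 44591 genes in the expression table. They were chosen by their measured levels and by their log2 ratios between the RBCK1 siRNA libraries and the control, so those values describe the genes and were not tested. In the control library, 5 of the 8 stood among the 64 most abundant of all genes per unit of length. With both RBCK1 siRNAs the 7 genes with a usable level were lower than in the control library, from *CXCL8* at 31.6% and 19.7% of it to *CXCL6* at 91.7% and 91.0%. Of all genes past the same filter, 48.4% were lower with si-RBCK1 #1 and 46.4% with si-RBCK1 #2, which is given as background only, since the ratios chose the chemokines.

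Caki-1 is an established human line of clear cell renal cell carcinoma. The cells received a control siRNA, called si-Control, or an siRNA against RBCK1, which is also known as HOIL-1. The RBCK1 siRNAs were si-RBCK1 #1 and si-RBCK1 #2 (si-HOIL-1#1 and si-HOIL-1#2 in the sample labels). Total RNA freed of ribosomal RNA was sequenced from directional libraries, 48 h after transfection per the methods of the study. Each condition had 1 library, 3 libraries in all, so no difference given here has a replicate check. The siRNAs are different reagents, and they were not treated as replicates. Their log2 ratios were averaged only to choose which members of each gene list to name. Both comparisons with si-Control share the same control library.

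CXC chemokines with the ELR motif, which are encoded by *CXCL1*, *CXCL2*, *CXCL3*, *CXCL5*, *CXCL6* and *CXCL8*, recruit neutrophils through the receptors CXCR1 and CXCR2. CCL2 recruits monocytes through CCR2, and CCL20 recruits lymphocytes and dendritic cells through CCR6. RBCK1 is a subunit of the linear ubiquitin chain assembly complex, with RNF31 and SHARPIN. Linear ubiquitin chains recruit NEMO and the IKK kinases to cytokine receptors, IKK releases NF-kB from its inhibitors, and NF-kB binds kB sites in the promoters of many chemokine genes. Chemokine transcripts also tend to carry AU-rich elements, which shorten their life.

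The sequences that bear on these genes are those of the siRNAs and of the chemokine promoters. The sense strands of the siRNAs are shown because both were designed against *RBCK1*, and the capitals mark the bases from position 12 to 18 that pair with positions 2 to 8 of the guide strand.
si-RBCK1 #1: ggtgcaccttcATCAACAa
si-RBCK1 #2: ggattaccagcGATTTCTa
Each 19-base strand matched *RBCK1* and 0 of the 8 chemokine transcripts, in the longest coding transcript of each gene in GENCODE v29. The 7 bases in capitals of si-RBCK1 #1 occurred in the transcripts of 22.3% of 19669 genes and in 0 of the 8 chemokines. Those of si-RBCK1 #2 occurred in 25.9% of genes and in *CXCL5*, *CXCL6* and *CXCL8*, and any part of such matches in the values was not tested.

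The promoters, taken from RefSeq on GRCh38.p14, were available for 7 of the 8 genes, all but *CCL2*. All 6 CXC genes carried the same 9-base kB element GGAATTTCC on the strand of the gene, beginning 77 to 91 bases before the start site. Searched on both strands, it was found in 162 of 35116 promoters of 300 bases, which is 0.461%. The windows below are written in the direction of each gene, with the element in capitals. They are shown because all the CXC genes share it, and any part of the element in their ratios was not tested.
CXCL8 (chr4:73740468-73740497, plus strand): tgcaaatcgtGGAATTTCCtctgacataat
CXCL1 (chr4:73869305-73869334, plus strand): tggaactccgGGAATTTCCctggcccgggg
CXCL2 (chr4:74099253-74099282, minus strand): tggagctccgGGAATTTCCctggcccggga
CXCL3 (chr4:74038748-74038777, minus strand): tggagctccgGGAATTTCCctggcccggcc
CXCL5 (chr4:73998748-73998777, minus strand): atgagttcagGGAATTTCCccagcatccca
CXCL6 (chr4:73836579-73836608, plus strand): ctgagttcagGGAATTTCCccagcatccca
The flanks were alike within families. *CXCL1*, *CXCL2* and *CXCL3* shared 27 or 28 of 30 bases with each other, *CXCL5* and *CXCL6* shared 29 of 30, and *CXCL8* shared 14 to 17 bases with the other windows.

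The 250 bases before the start sites of *CXCL8*, *CXCL5* and *CXCL6* are shown. *CXCL8* stood lowest against si-Control with both siRNAs, and the promoters of *CXCL5* and *CXCL6* were much alike. Any part of the promoter sequences in the ratios was not tested.
CXCL8 (chr4:73740319-73740568, plus strand): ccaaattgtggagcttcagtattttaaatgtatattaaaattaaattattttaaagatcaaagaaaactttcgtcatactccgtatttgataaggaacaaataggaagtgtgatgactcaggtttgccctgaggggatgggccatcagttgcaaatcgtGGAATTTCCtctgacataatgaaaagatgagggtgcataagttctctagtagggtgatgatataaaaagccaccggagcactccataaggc
CXCL5 (chr4:73998678-73998927, minus strand): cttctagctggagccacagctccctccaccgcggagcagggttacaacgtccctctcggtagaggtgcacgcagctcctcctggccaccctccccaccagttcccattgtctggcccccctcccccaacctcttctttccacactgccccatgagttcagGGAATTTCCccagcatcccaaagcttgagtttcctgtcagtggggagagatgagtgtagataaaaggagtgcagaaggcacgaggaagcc
CXCL6 (chr4:73836428-73836677, plus strand): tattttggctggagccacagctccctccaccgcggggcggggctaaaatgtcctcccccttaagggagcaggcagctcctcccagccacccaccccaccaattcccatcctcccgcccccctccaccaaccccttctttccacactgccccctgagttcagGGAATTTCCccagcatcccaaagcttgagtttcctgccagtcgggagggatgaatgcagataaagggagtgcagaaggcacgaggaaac
Aligned over 300 bases, 50 of them after the start site, the promoters of *CXCL5* and *CXCL6* were 83.1% identical and those of *CXCL1* and *CXCL3* 82.5%. The *CXCL8* promoter was 42.6% to 47.7% identical to the others. It held an AP-1 element (TGANTCA on either strand, 7.71% of all promoters) 137 bases before the start, which no other of the 7 promoters did, and a TATAAA element 31 bases before it. TATAAA occurred in 11.5% of all promoters and, among these genes, also in *CCL20*. A GC box (GGGCGG on either strand, 45.0% of promoters) was found in *CXCL1*, *CXCL3* and *CXCL6*.

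The *CCL20* promoter lacked GGAATTTCC. It is shown because it held another form of the NF-kB consensus, on the strand opposite to the gene. The capitals are written in the direction of the gene, so their reverse complement matches the consensus GGGRNYYYCC (R is A or G, Y is C or T, N is any base).
CCL20 (chr2:227813592-227813841, plus strand): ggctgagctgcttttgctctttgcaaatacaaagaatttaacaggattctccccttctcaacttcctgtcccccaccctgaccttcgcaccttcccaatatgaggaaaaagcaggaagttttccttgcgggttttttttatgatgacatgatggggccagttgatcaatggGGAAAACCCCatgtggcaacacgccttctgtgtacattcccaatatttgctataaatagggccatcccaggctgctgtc
The consensus, searched on both strands, occurred in 7.73% of all promoters and in 6 of these 7. In *CXCL1*, *CXCL2*, *CXCL3*, *CXCL5* and *CXCL6* it overlapped GGAATTTCC by 9 bases, and *CXCL8* lacked it. A match describes the letters of a promoter and is not evidence of binding.

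The expression values are RPKM, reads corrected for gene length and library depth. The depths, found from the smallest steps between values, were 36926834 reads in si-Control, 40442939 in si-RBCK1 #1 and 36344428 in si-RBCK1 #2. The reads given for a gene are the smallest whole numbers that its values allow at these depths. Log2 ratios are on the log2(RPKM + 1) scale. They are given for genes whose mean across all 3 libraries reached 1 RPKM, 12403 in number, whose median log2 ratio was 0.02 with si-RBCK1 #1 and 0.03 with si-RBCK1 #2. Intervals are exact 95% intervals (Poisson for a level, Clopper-Pearson for a share or a ratio of reads) and cover counting error only. In bulk RNA, fewer cells that make a transcript and less of it per cell cannot be told apart. Of 14 leukocyte markers, 13 were under 1 RPKM in every library, among them *PTPRC* and *CD14*, and 7, 6 and 4 were at 0 in si-Control, si-RBCK1 #1 and si-RBCK1 #2. The remaining marker, *CD68*, which is also made outside leukocytes, was at 41.8, 51.0 and 52.3 RPKM, so the summed level of the list was 42.0, 51.5 and 52.6 RPKM. Of 12 renal markers, 5 passed the filter, and *CA9*, a marker of clear cell carcinoma, was at or below 0.0636 RPKM. The renal transcription factor gene *PAX8* was at 124, 82.5 and 107 RPKM in si-Control, si-RBCK1 #1 and si-RBCK1 #2. The keratin gene *KRT8* was at 65.6, 172 and 238 RPKM (log2 ratios 1.38 and 1.84) and the vimentin gene *VIM* at 664, 1512 and 1392 RPKM (1.19 and 1.07), both higher where the chemokines were lower, and their part in the chemokine values was not tested.

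*RBCK1*, the targeted gene, was at 33.3 RPKM (5294 reads) in si-Control, 9.97 RPKM (1735 reads) in si-RBCK1 #1 and 12.3 RPKM (1917 reads) in si-RBCK1 #2. It was lower in both siRNA libraries and lowest in si-RBCK1 #1. Its log2 ratios were -1.65 and -1.37. The chemokines showed the opposite order between the siRNA libraries. All 7 that passed the filter were highest in si-Control, lower in si-RBCK1 #1 and lowest in si-RBCK1 #2, although *CXCL6* differed by less than its counting error between the siRNA libraries and changed place when libraries were scaled to equal totals. That order was found for 2091 of the 12403 genes, or 16.9%. The share is background only, since the ratios to si-Control chose the chemokines, and nothing is read from the difference.

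**Figure D1:**
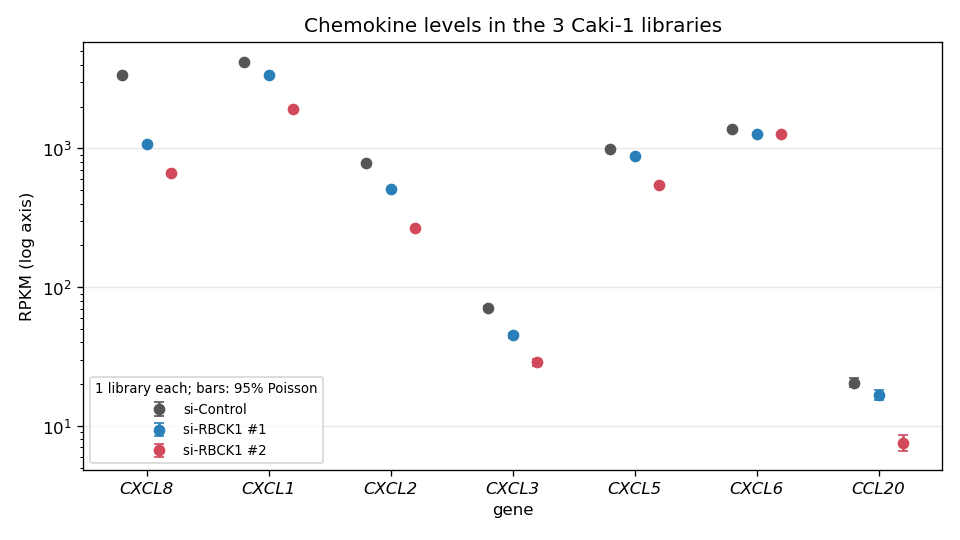
Level of 7 chemokine genes in each of the 3 Caki-1 libraries, in RPKM on a log axis (points: 1 library each, bars: exact 95% Poisson intervals, mostly smaller than the points). *CXCL1* lies at the top in every library, *CXCL8* runs from 3383 to 667 RPKM, *CXCL6* lies between 1264 and 1389 RPKM, and *CCL2*, with at most 4 reads, is not drawn.

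*CXCL8* encodes interleukin 8, the main human neutrophil attractant. Its position in the hg19 coordinates of the table is chromosome 4, 74606223 to 74609433, plus strand. Its level was 3383 RPKM (213022 reads) in si-Control, 1070 RPKM (73796 reads) in si-RBCK1 #1 and 667 RPKM (41363 reads) in si-RBCK1 #2. The siRNA libraries both lay far below the control, and their Poisson intervals (1062 to 1078 and 661 to 674 RPKM) did not overlap. Its log2 ratios to si-Control were -1.66 and -2.34, levels 3.16-fold and 5.06-fold lower. In reads it stood at 31.6% of si-Control with si-RBCK1 #1 (interval 31.4% to 31.9%) and at 19.7% with si-RBCK1 #2 (19.5% to 19.9%). Of the 12403 genes, 48 had a lower ratio with si-RBCK1 #1 and 3 with si-RBCK1 #2. By level, *CXCL8* ranked 10 among all genes in si-Control, 46 in si-RBCK1 #1 and 82 in si-RBCK1 #2.

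*CXCL1*, *CXCL2* and *CXCL3* encode the closely related GRO chemokines, which act on CXCR2. *CXCL1* was the most abundant of the 8 genes in every library. At chromosome 4, 74735109 to 74737019, plus strand, it was at 4187 RPKM (184299 reads) in si-Control, 3395 RPKM (163667 reads) in si-RBCK1 #1 and 1939 RPKM (83990 reads) in si-RBCK1 #2. The si-RBCK1 #1 library lay nearer to the control than to si-RBCK1 #2. The log2 ratios were -0.30 and -1.11. In reads *CXCL1* was at 81.1% of si-Control (80.5% to 81.6%) and at 46.3% (45.9% to 46.7%), and it still ranked 9 and 16 among all genes, after 8 in si-Control.

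*CXCL2* (chromosome 4, 74962752 to 74964997, minus strand) was at 780 RPKM (34694 reads) in si-Control, 509 RPKM (24814 reads) in si-RBCK1 #1 and 266 RPKM (11667 reads) in si-RBCK1 #2. It was lower in si-RBCK1 #1 than in si-Control, and lower again in si-RBCK1 #2. Its log2 ratios to si-Control were -0.61 and -1.55, and it was -0.93 from si-RBCK1 #1 to si-RBCK1 #2. In reads it was at 65.3% of si-Control (64.2% to 66.4%) and at 34.2% (33.5% to 34.9%).

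*CXCL3* (chromosome 4, 74902306 to 74904490, minus strand) was the least abundant of the CXC genes. It was at 70.6 RPKM (3021 reads) in si-Control, 45.0 RPKM (2111 reads) in si-RBCK1 #1 and 28.7 RPKM (1208 reads) in si-RBCK1 #2. The order matched that of *CXCL2* at a far lower level, and the ratio of *CXCL3* to *CXCL2* RPKM was 0.0905, 0.0884 and 0.108 in the 3 libraries. The log2 ratios were -0.64 and -1.27, and in reads *CXCL3* was at 63.8% (60.3% to 67.5%) and 40.6% (38.0% to 43.4%) of si-Control. With si-RBCK1 #1 the intervals of *CXCL2* and *CXCL3* overlapped, and with si-RBCK1 #2 they did not. The transcripts of these 3 genes share sequence, so some reads could be placed on the wrong one. Of all 50-nt windows, 5.73% in *CXCL1*, 9.24% in *CXCL2* and 5.26% in *CXCL3* occurred in another of the 3, and the part of this in their values was not tested.

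*CXCL5* and *CXCL6* encode ENA-78 and GCP-2, a closely related pair of neutrophil attractants. *CXCL5* (chromosome 4, 74861359 to 74864446, minus strand) was at 988 RPKM (90817 reads) in si-Control, 881 RPKM (88698 reads) in si-RBCK1 #1 and 547 RPKM (49500 reads) in si-RBCK1 #2. It was close to the control with si-RBCK1 #1 and well below it with si-RBCK1 #2. The gene had log2 ratios of -0.17 and -0.85, and the reads were at 89.2% (88.4% to 90.01%) and 55.4% (54.8% to 56.0%) of si-Control. A small share of its 50-nt windows, 1.12%, also occurred in *GLYR1*.

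*CXCL6* (chromosome 4, 74702273 to 74704477, plus strand) was at 1389 RPKM (85092 reads) in si-Control, 1274 RPKM (85474 reads) in si-RBCK1 #1 and 1264 RPKM (76240 reads) in si-RBCK1 #2. It was the one chemokine with nearly the same level in both siRNA libraries. The log2 ratios were -0.12 and -0.14, and the reads were at 91.7% (90.8% to 92.6%) and 91.0% (90.1% to 91.9%) of si-Control. From si-RBCK1 #1 to si-RBCK1 #2 the ratio was 99.3%, with an interval of 98.3% to 100.2% that includes no difference. The promoters of *CXCL5* and *CXCL6* printed above share 29 of the 30 bases around the kB element, and both transcripts hold the 7-base match to si-RBCK1 #2, as does *CXCL8*. The 3 genes with that match were at 55.4%, 91.0% and 19.7% of si-Control with si-RBCK1 #2. Without it, *CXCL1*, *CXCL2*, *CXCL3* and *CCL20* were at 46.3%, 34.2%, 40.6% and 37.0%. Any part of the match in these values was not tested.

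*CCL20* (chromosome 2, 228678558 to 228682280, plus strand) was at 20.5 RPKM (637 reads) in si-Control, 16.7 RPKM (567 reads) in si-RBCK1 #1 and 7.58 RPKM (232 reads) in si-RBCK1 #2. It resembled *CXCL1* in its order and in the nearness of si-RBCK1 #1 to the control, at a far lower level. The log2 ratios were -0.28 and -1.32. In reads it was at 81.3% (72.4% to 91.2%) and 37.0% (31.7% to 43.1%) of si-Control, and si-RBCK1 #2 was at 45.5% of si-RBCK1 #1 (38.9% to 53.1%). *CCL20* had the widest counting intervals of the 7 genes.

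*CCL2* (chromosome 17, 32582296 to 32584222, plus strand) was barely detected. It had 4 reads (0.145 RPKM) in si-Control, 0 reads in si-RBCK1 #1 and 3 reads (0.110 RPKM) in si-RBCK1 #2. The 0 reads allow up to 0.122 RPKM, and no difference was detectable at this depth. The ratio of si-RBCK1 #2 to si-Control had an interval from 11.2% to 450%. The list therefore measures the neutrophil attractants and *CCL20*, and holds no usable value for the monocyte attractant.

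**Figure D2:**
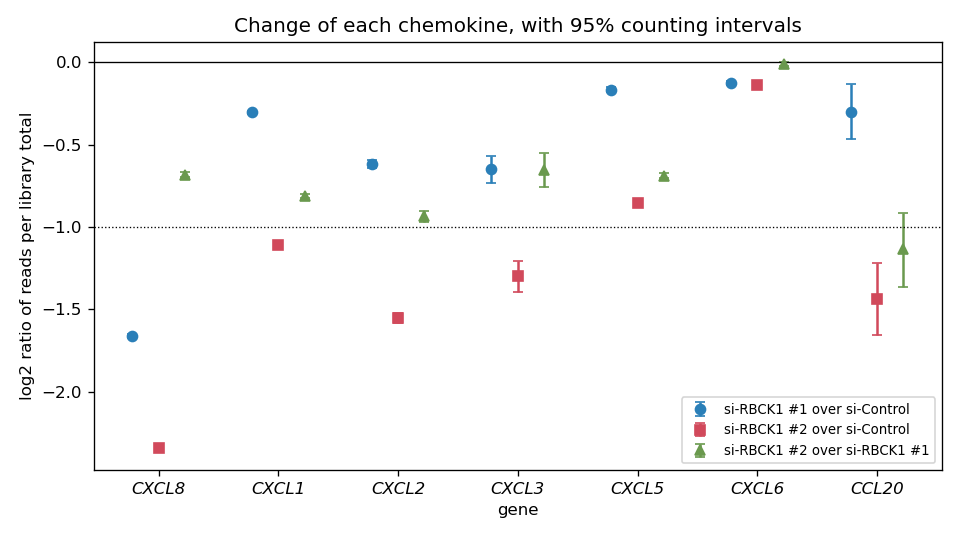
Log2 ratio of reads per library total for 7 chemokine genes, for each si-RBCK1 library over si-Control and for si-RBCK1 #2 over si-RBCK1 #1 (bars: exact 95% Clopper-Pearson intervals, the dotted line marks -1). *CXCL8* lies lowest in both comparisons with si-Control, *CXCL6* lies near 0 in all 3, and the other genes lie lower with si-RBCK1 #2 than with si-RBCK1 #1.

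Over the 7 genes that passed the filter, the median log2 ratio was -0.30 with si-RBCK1 #1 and -1.27 with si-RBCK1 #2. Genes at least 2-fold lower than si-Control were 1 of the 7 with si-RBCK1 #1 (*CXCL8*, against 3.27% of all genes past the filter) and 5 of the 7 with si-RBCK1 #2 (*CXCL8*, *CXCL2*, *CCL20*, *CXCL3* and *CXCL1*, against 2.27%). *CXCL8* was 2-fold lower in both (1.41% of all genes). These shares of all genes are given as background, and since the same ratios chose the genes, nothing is read from the difference. Between the siRNA libraries the median was -0.69. At least 2-fold lower in si-RBCK1 #2 than in si-RBCK1 #1 was 1 of the 7 (*CCL20*), against 0.661% of all genes. This log2 ratio is the difference of those that chose the genes, so nothing is read from that share either. The ratio between the siRNA libraries ran from -0.01 (*CXCL6*) to -1.04 (*CCL20*), with *CXCL3* at -0.63. With si-RBCK1 #1 over si-Control, the same genes ran from -0.12 (*CXCL6*) to -1.66 (*CXCL8*).

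The 8 genes together took 611586 reads in si-Control, 439127 in si-RBCK1 #1 and 264203 in si-RBCK1 #2. That was 1.66% of the reads of the control library (1.652% to 1.660%), 1.09% of those of si-RBCK1 #1 (1.083% to 1.089%) and 0.727% of those of si-RBCK1 #2 (0.724% to 0.730%). The pooled reads were thus at 65.6% of si-Control with si-RBCK1 #1 (65.3% to 65.8%) and at 43.9% with si-RBCK1 #2 (43.7% to 44.1%).

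The make-up of the pool differed as well as its size. *CXCL8* made up 31.3% of the summed RPKM of the 8 genes in si-Control, 14.9% in si-RBCK1 #1 and 14.1% in si-RBCK1 #2. *CXCL6* had the opposite order in share, with 12.8%, 17.7% and 26.8%, while its own level was slightly lower. *CXCL1* held the largest share in each library, 38.7%, 47.2% and 41.1%. The RPKM of *CXCL8* was 2.44 times that of *CXCL6* in si-Control and 0.840 and 0.528 times in the siRNA libraries, so the order of these genes turned. *CXCL8* accounted for 63.8% of the difference in summed RPKM between si-RBCK1 #1 and si-Control and for 44.5% with si-RBCK1 #2, and *CXCL1* for 21.8% and 36.9%.

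**Figure D3:**
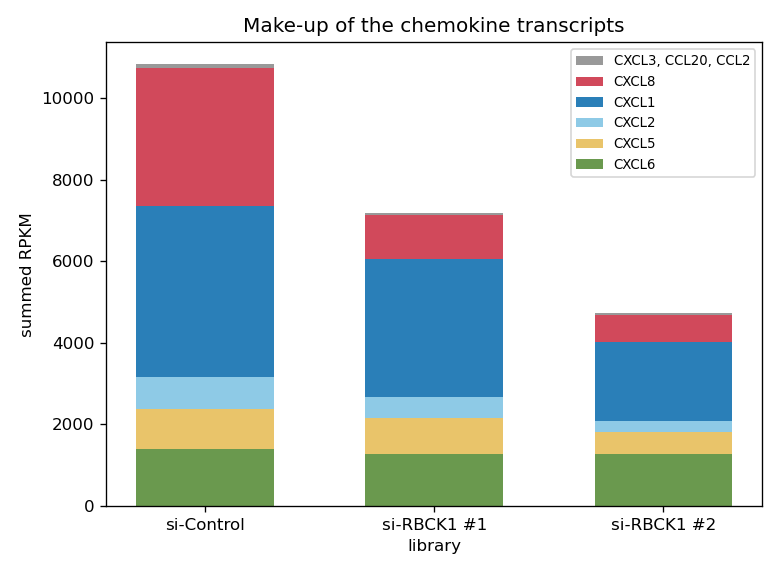
Summed RPKM of the 8 chemokine genes in each library (stacked bars, 1 library each), divided by gene. The total is 10819 RPKM in si-Control, 7192 in si-RBCK1 #1 and 4721 in si-RBCK1 #2, the *CXCL8* part is 31.3%, 14.9% and 14.1% of it, and the *CXCL6* part has nearly the same height.

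The 6 CXC genes lie within 358.775 kb of chromosome 4. Within this span 3 other protein-coding genes, *PF4V1*, *PF4* and *PPBP*, which encode platelet chemokines, were below 1 RPKM in every library (at most 0.629 RPKM). Counted from the start of *CXCL8*, the starts of *CXCL6*, *CXCL1*, *CXCL5*, *CXCL3* and *CXCL2* follow at 96.05, 128.886, 258.223, 298.267 and 358.774 kb. The ratios did not run in one direction along the cluster: *CXCL6*, the gene nearest to *CXCL8* of these, had the ratios nearest to 0. Only protein-coding neighbours were looked at. In the 400 kb beyond *CXCL2*, those that passed the filter were *MTHFD2L*, *EPGN*, *EREG* and *AREG*, and each was lower with both siRNAs. Of all protein-coding genes past the filter, 47.6% were lower with si-RBCK1 #1 and 45.4% with si-RBCK1 #2. These neighbours were named after their values were seen, and a shared change of the region was not tested. *EREG*, which encodes the growth factor epiregulin, was at 530, 442 and 302 RPKM in si-Control, si-RBCK1 #1 and si-RBCK1 #2, log2 ratios of -0.26 and -0.81, in the order of the chemokines. *AREG*, which encodes amphiregulin, was at 196, 95.5 and 120 RPKM, log2 ratios of -1.03 and -0.70, in the order of *RBCK1*. *MTHFD2L* had log2 ratios of -0.53 and -0.80, and *EPGN* -0.83 and -0.60. On the other side of *CXCL8*, the protein-coding genes *RASSF6*, *AFM*, *AFP* and *ALB* did not pass the filter.

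**Figure D4:**
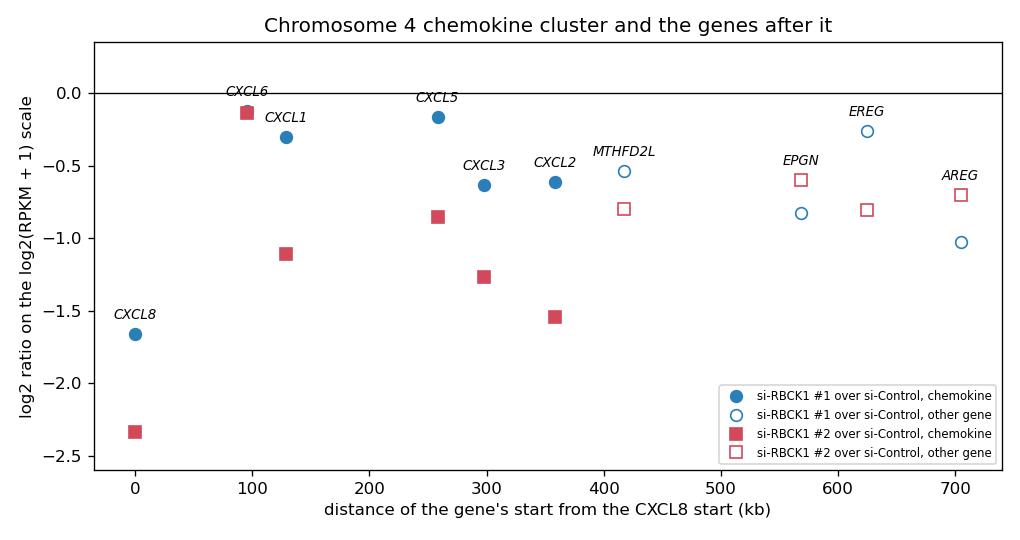
Log2 ratio on the log2(RPKM + 1) scale against the distance of each gene's start from that of *CXCL8* in kb. Drawn are the 6 chemokines (filled) and the neighbouring protein-coding genes after them (open) that passed the filter. Circles are si-RBCK1 #1 and squares si-RBCK1 #2, each over si-Control. All genes drawn lie below 0 with both siRNAs, with *CXCL6* nearest to 0 (its points overlap) and *CXCL8* lowest.

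Of 36 other chemokine genes, only *CX3CL1*, which encodes fractalkine, passed the filter. It was at 4.42, 2.96 and 4.15 RPKM in si-Control, si-RBCK1 #1 and si-RBCK1 #2, log2 ratios of -0.45 and -0.07, and thus near the control with si-RBCK1 #2. The receptors of the chemokines were at or near 0: *CXCR1* and *CCR6* were listed at 0 in all 3 libraries, *CXCR2* had 1, 3 and 1 reads, and *CCR2* had 0, 0 and 1. Of 23 chemokine receptor genes, 1 passed the filter, *ACKR4*, a scavenging receptor, at 2.45, 0.495 and 1.02 RPKM. Its log2 ratios were -1.21 and -0.77.

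Genes upstream of the chemokines were taken from a list of 34 receptors, adaptors, IKK subunits and subunits of the linear ubiquitin complex with its deubiquitinase. Of the 32 that passed the filter, 17 were higher and 15 lower with si-RBCK1 #1, 19 were higher and 13 lower with si-RBCK1 #2, and 0 reached 2-fold in either. Higher genes were thus 53.1% and 59.4% of the list, beside 51.5% and 53.5% of all genes past the filter. The medians were 0.18 and 0.18. *TNFRSF1A*, the main TNF receptor, was at 30.7, 60.3 and 60.4 RPKM, a log2 ratio of 0.95 with each siRNA. *TAB2*, an adaptor of the TAK1 kinase, was at 43.0, 22.4 and 21.4 RPKM (-0.91 and -0.98). *IL1RAP*, the co-receptor for interleukin 1, had -0.88 and -0.89, and *LTBR*, the lymphotoxin receptor, 0.65 and 0.62. The partners of RBCK1 were close to the control, with log2 ratios of 0.24 and 0.29 for *RNF31* and -0.12 and -0.20 for *SHARPIN*.

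Other known NF-kB targets did not share one direction. Of 33 listed, 29 passed the filter, with 14 higher and 15 lower with si-RBCK1 #1 (median -0.04) and 12 higher and 17 lower with si-RBCK1 #2 (median -0.12). Higher genes were 48.3% and 41.4% of the list, below the 51.5% and 53.5% of all genes. With no filter the first of these medians was 0.015. At least 2-fold lower with si-RBCK1 #1 were 3, *LCN2*, *IL1A* and *IRF1*, or 10.3% against 3.27% of all genes. With si-RBCK1 #2 there were 5, *IL1A*, *CSF2*, *IRF1*, *LCN2* and *ICAM1*, or 17.2% against 2.27%. At least 2-fold higher with si-RBCK1 #1 were 2, *CSF3* and *CD83*, or 6.90% against 2.91% of all genes. With si-RBCK1 #2 there were 0, against 2.50%. The list was chosen with earlier results of these data known, and these shares were not tested. *NFKBIA*, which encodes the inhibitor IkBa and is a standard readout of NF-kB, was at 47.4, 78.6 and 56.9 RPKM, higher in both siRNA libraries (0.72 and 0.26). *TNFAIP3*, which encodes the feedback inhibitor A20, was at 3.73, 6.55 and 3.72 RPKM, higher with si-RBCK1 #1 (0.68) and at the level of the control with si-RBCK1 #2.

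The ends of that list were taken by the mean of both log2 ratios. At the lower end, *IL1A*, which encodes the cytokine interleukin 1 alpha, was at 53.9, 18.1 and 11.9 RPKM, log2 ratios of -1.52 and -2.09 near those of *CXCL8*. *LCN2*, which encodes the iron carrier lipocalin 2, was at 143, 23.8 and 52.9 RPKM (-2.54 and -1.42), lowest in si-RBCK1 #1. At the upper end, *CSF3*, which encodes the neutrophil growth factor G-CSF, was at 1.99, 13.3 and 2.89 RPKM (2.25 and 0.38). The dendritic cell marker gene *CD83* was at 1.32, 3.86 and 3.14 RPKM (1.07 and 0.84).

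AP-1 and C/EBP factors also act on chemokine promoters. Of 12 such genes, 11 passed the filter, with 7 higher and 4 lower with si-RBCK1 #1 (median 0.16) and 8 higher and 3 lower with si-RBCK1 #2 (median 0.26). The higher shares were 63.6% and 72.7%, beside the 51.5% and 53.5% of all genes. *CEBPG* (-1.09 and -0.94) and *ATF3* (-0.64 and -0.86) were lowest. By the mean of both log2 ratios, *FOS*, at 0.376, 2.01 and 0.650 RPKM (1.13 and 0.26), and *JUND* (0.64 and 0.71) were highest. With si-RBCK1 #2 alone other genes of the list, among them *CEBPD* (0.38), lay above *FOS*.

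AU-rich elements were read as the pentamer AUUUA in the longest coding transcript of each gene. Its density was 5.87 per kb in *CXCL8*, 4.56 in *CXCL1*, 8.21 in *CXCL2*, 6.51 in *CXCL3*, 4.33 in *CXCL5*, 3.49 in *CXCL6* and 4.77 in *CCL20*, against a median of 0.937 over 19669 genes. *CXCL6* had the lowest density of the 7 and *CXCL2* the highest, and at least 95.8% of all genes had a lower density than each of them. *CCL2* stood apart with 1.35 per kb. Genes for factors that bind AU-rich or stem-loop elements of such transcripts, or signal to those factors, numbered 10, and all passed the filter. With each siRNA 6 were higher and 4 lower, or 60% higher beside 51.5% and 53.5% of all genes, with medians of 0.13 and 0.12. *ZC3H12A*, which encodes the RNase Regnase-1, was at 22.3, 42.8 and 35.0 RPKM (0.91 and 0.63), and *ZFP36L2*, which encodes a decay factor, had log2 ratios of 0.52 and 0.57. By the mean of both log2 ratios, *TIA1* (-0.42 and -0.28) and *TIAL1* (-0.06 and -0.22) were lowest.

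The genes with the pattern most like *CXCL1*, by the Euclidean distance in the log2 ratios of both siRNAs to si-Control among 10773 protein-coding genes past the filter, were *CDKN3* (0.0235), *ATG12* (0.0773), *TNC* (0.0909), *PMAIP1* (0.105) and *C12orf73* (0.112). *CDKN3* was at 9.62, 7.67 and 3.85 RPKM in the 3 libraries. For *CCL20* the nearest were *ATG12* (0.176), *CDKN3* (0.193) and *CXCL1* itself (0.215). The distances rest on 3 libraries, and genes at a small distance need not share anything else.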

How the data were processed

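RNA-seq libraries of Caki-1 cells, 1 for each of 3 siRNA conditions, were read from 1 table of 44591 genes in which the authors deposited RPKM values, which correct reads for gene length and library depth. The submitters' processing notes name hg19, TopHat2, FastQC, Trimmomatic and HTSeq, and the gene annotation is not given in the sources used here. The labels and the paper's methods name different sequencing providers. The table's other columns hold the authors' own comparison (levels of control and treated cells, a log2 fold change with its p and q values) and were not used. In 1 gene that is not a chemokine, *EGR1*, the si-Control entry is not a number.

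Library totals were found from the RPKM steps of genes of up to 200 nt, and whole reads were found for 1240 of 1241 genes searched (99.9%, within 0.002 reads, at lengths up to 50000 nt). They are the smallest numbers of reads that the values allow. No other gene of the table overlapped one of the 8 on its coordinates. Log2 ratios used a pseudocount of 1 RPKM, which understates the ratios of low genes, and a mean of at least 1 RPKM. With 1 library per condition no test was run and no p-value is given, as planned. No count model was run on the recovered reads.

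The 8 genes and the gene lists were chosen with earlier results of these data known. The lists were written from general knowledge, and NF-kB targets that the study displayed from these libraries were left out. Genes named are the 8 chemokines, *RBCK1*, *NFKBIA*, *TNFAIP3*, the receptors of the chemokines, the 2 lowest and 2 highest members of each list by the mean of both log2 ratios, and the 5 genes most like *CXCL1* and *CCL20*, the most abundant CXC and CC members. Some genes that this rule names are not reported here. *RNF31*, *SHARPIN*, *PTPRC*, *CD14*, *CA9*, *IRF1*, *CSF2*, *ICAM1*, *CEBPD* and the neighbours on chromosome 4 were named after their values were seen. Alternatives were pseudocounts of 0.1 and 5 RPKM, no filter, a mean of at least 5 RPKM, equal medians or totals, protein-coding genes and limits of 1.5-fold and 4-fold. The steps were tested on simulated data. Promoters (RefSeq, GRCh38.p14) and transcripts (GENCODE v29) were used for sequences and not for positions in the table. Tables were handled with pandas 2.3.3 and numpy 2.4.6 in Python 3.11.15, intervals were computed with scipy 1.17.1, and plots were drawn with matplotlib 3.10.9.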

Additional observations from a re-analysis of the deposited data

How the results depend on the processing

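The median log2 ratio of the chemokines kept its sign and stayed near its value under the pseudocounts, filters and scalings tried. It ran from -0.36 to -0.29 with si-RBCK1 #1, from -1.32 to -1.11 with si-RBCK1 #2, and from -0.73 to -0.66 between the siRNA libraries. The log2 ratio of *CXCL6* between the siRNA libraries turned to 0.013 with equal totals, and the median of the NF-kB targets with si-RBCK1 #1 turned to 0.015 with no filter. Equal totals shifted the median of all genes between the siRNA libraries by 0.020, more than the -0.011 of *CXCL6*. With no filter the NF-kB targets numbered 33 and not 29, so their median fell on another gene.

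Chemokines lower than si-Control with si-RBCK1 #1 numbered 3 at 1.5-fold and 0 at 4-fold, and with si-RBCK1 #2 1 at 4-fold, as a looser or stricter limit must. Between the siRNA libraries there were 6 at 1.5-fold, 0 at 4-fold and 0 with a pseudocount of 5 RPKM. These counts are of the 7 genes past the filter. The ratios chose those genes, so nothing is read from the counts beside those of all genes. The lower genes among all genes are given for si-RBCK1 #1, for si-RBCK1 #2 and between the siRNA libraries, in that order. Of 12403 genes, they numbered 730, 522 and 147 with a pseudocount of 0.1 RPKM, and 105, 97 and 9 with 5 RPKM. With a mean of at least 5 RPKM they numbered 218, 174 and 21 of 8078 genes. Of 12403 genes, 1435, 1156 and 288 were lower at 1.5-fold, and 23, 14 and 10 at 4-fold. Between the siRNA libraries 151 of 44590 were lower with no filter and 12 of 10775 among protein-coding genes. The other 31 counts stayed within 1.5 times. Of the planned log2 ratios of single genes, 114 stayed within the counting error of their value, 29 moved beyond it with the same sign, and 1, that of *CXCL6* above, changed sign. The use of recovered reads with no pseudocount was chosen after seeing the data, and it left 23 ratios within counting error and moved 1 beyond it, that of *RBCK1* with si-RBCK1 #1 (-1.74). No paired analysis was possible because there was 1 library per siRNA. Depth limits *CCL2*, with at most 4 reads, and *CCL20*.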
